A study of Mus musculus with 4 samples.

Results

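Large resident peritoneal macrophages were examined in 2 droplet-based single-cell expression libraries of peritoneal cells, 1 from wild-type (WT) mice and 1 from knockout (KO) mice. A droplet barcode was counted as such a macrophage when it had at least 200 genes, under 10% mitochondrial transcripts, at least 5 unique molecular identifiers (UMIs, counts of single captured transcripts) summed over Gata6, Alox15, Prg4, Garnl3 and F5, at least 1 UMI of Csf1r, and at most 10 UMIs summed over the B-cell genes Cd79a, Cd79b and Ms4a1. The rule found 110 of 32603 barcodes, 20 in the WT library and 90 in the KO library. Because the members were chosen on measured transcripts, the levels of these 9 genes are given as a description only. All mice, WT and KO alike, had received a high-fat diet for 3 months from the age of 4 weeks. Cells were rinsed from the abdominal cavity and sorted for CD45, a surface protein of all leukocytes, and a B-cell receptor library was made from each genotype as well. The number of mice behind each library, their sex and their strain are not given in the sources used here. With 1 library per genotype no test between genotypes was possible, so each ratio below compares 2 libraries, and its 95% interval covers counting error only and treats UMIs as independent draws, although transcripts of 1 cell vary together.

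The serous cavities of the mouse hold a resident population of large macrophages that depends on the transcription factor GATA6, which is induced by retinoic acid from the surrounding tissue. These cells take up dying cells, carry factors of the coagulation system on their surface and clot around injured sites, and express little major histocompatibility complex (MHC) class II. A second, small macrophage population comes from blood monocytes, carries CCR2 early in its life, expresses MHC class II, and can take on the large phenotype over time, with TIM4 (Timd4) appearing late. Alox15 encodes a lipoxygenase that makes specialised lipid mediators, Prg4 the lubricating proteoglycan lubricin, and F5 coagulation factor V.

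The WT library held 10087 barcodes with a median of 6362 UMIs and the KO library 22516 barcodes with a median of 3298. In all, 293 barcode sequences occurred in both libraries, and 0 of these belonged to a member. Members had a median of 13317 UMIs in WT (lowest 1009, highest 26546) and 6843 in KO (lowest 822, highest 14365), and a median of 3352 and 2256 genes. Their summed UMIs, over which all levels below are given as UMIs scaled to a fixed library total (CPM), came to 246110 in WT and 610426 in KO. At 50 CPM, the lower limit for calling a gene here, a WT value rests on about 12.3 UMIs and a KO value on about 30.5.

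The label was checked against its markers. The 5 markers of large peritoneal macrophages, Gata6, Prg4, Alox15, Timd4 and Cxcl13, of which the rule used the first 3, were all detected in both sets of members, and their summed level was 13539 CPM in WT and 8488 in KO. The same 5 genes summed to 9.46 and 2.40 CPM in a comparison set of small macrophages, which was taken from the same libraries with at most 1 UMI of the 5 selecting genes, and to 2.18 and 5.75 CPM in B-cell barcodes. These sums are set mainly by the genes of the rule, on which both sets were chosen. Of the markers outside the rule, Timd4 stood at 557 and 362 CPM in large and at 9.46 and 0 CPM in small macrophages, and Cxcl13 at 1463 and 724 CPM in large and at 0 in small macrophages of both libraries. Gata6 was seen in 16 of 20 WT members (80%, exact 95% interval 56.3% to 94.3%) and in 46 of 90 KO members (51.1%, 40.3% to 61.8%). In B-cell barcodes, whose median depths were 7805 UMIs in WT and 4337 in KO, a Gata6 UMI occurred in 0.0418% and 0.104%, which is taken as the background level. With each barcode thinned to 2000 UMIs, which left out 2 WT and 5 KO members as too shallow, Gata6 was seen in 33.3% (13.3% to 59.0%) and 21.2% (13.1% to 31.4%) of members, and these intervals overlap. Icam2, an adhesion molecule of these cells that the rule did not use, was seen in 19 of 20 and 80 of 90 large macrophages and in 5 of 38 and 22 of 123 small ones. Genes shared by both macrophage types were seen in nearly all members, namely Itgam (integrin alpha M, CD11b) in 20 and 86, Adgre1 (the macrophage antigen F4/80) in 19 and 81, and Fn1 (fibronectin) and Lyz2 (lysozyme) in every member. The counts in small macrophages were 31 of 38 and 94 of 123 for Itgam, 24 and 52 for Adgre1, 32 and 109 for Fn1, and 38 and 123 for Lyz2. Adgre1 was among the genes on which the small macrophages were chosen, so its counts there are a description only.

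Markers of most other cells that the lavage could hold were at or near 0 in the WT members, and those of lymphocytes were present in part of the KO members. Exceptions were the 8 small-macrophage and monocyte markers, which summed to 2751 CPM in WT and 876 CPM in KO, with 595 of the 677 WT UMIs being Retnla in 1 member, and the 8 neutrophil markers, at 65.0 and 77.0 CPM in 10 of 20 and 35 of 90 members, with S100a9 at 0 in both. None of 10 mesothelial, 10 fibroblast, endothelial and adipocyte, or 8 erythroid and platelet markers had a UMI in any member of either library. The 8 dendritic-cell markers summed to 1 UMI in WT and 7 in KO, with Flt3, Itgax, Clec9a, Xcr1 and Siglech at 0 in both. The 10 B-cell markers summed to 24.4 CPM in WT, with 6 of them at 0, and to 221 CPM in KO, where all 10 were detected. Among them, Cd79a, Cd79b and Ms4a1 were capped by the rule. They stood at 8.13, 4.06 and 0 CPM in WT and at 63.9, 27.8 and 11.5 CPM in KO. T-cell markers summed to 1 UMI in WT and 46 UMIs in KO, of which up to 18 lay in 1 barcode, and markers of natural killer and innate lymphoid cells to 3 and 49 UMIs. A heavy-chain contig in the B-cell receptor library of the same genotype was attached to 0 of 20 WT members, which allows a share of up to 15% by the limit of 3 counts and up to 16.8% by the exact interval, and to 2 of 90 KO members (2.22%, 0.270% to 7.80%). The shares in B-cell barcodes, which were chosen for over 10 B-cell UMIs, were 79.5% and 74.5%. The B-cell cap of the rule also lowers the share among members. Of the 9 WT and 28 KO barcodes that it left out, 8 and 14 carried a heavy-chain contig. The low share in members is therefore no independent check of the label.

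Large macrophages made up 0.20% of the WT barcodes that passed the quality limits (20 of 10018, exact 95% interval 0.122% to 0.308%) and 0.403% of the KO barcodes (90 of 22327, 0.324% to 0.495%). The KO share was 2.02 times the WT share (1.24 to 3.28). When barcodes were thinned to 5000 UMIs and 3 selecting UMIs were required, 3817 WT and 15309 KO barcodes were left out as too shallow. The counts among the rest were 15 of 6201 (0.242%) and 60 of 7018 (0.855%), a ratio of 3.53 whose denominators are the deep barcodes only. A lavage share depends on every other cell type in the sort, and neither the number of cells per mouse nor the spread between mice was measured.

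The 2 libraries differed in how sharply the rule set the members apart. In WT, no barcode with Csf1r that met the B-cell limit had between 3 and 21 selecting UMIs: the lowest member had 22, 3 members had 20 to 29, and 17 had 30 or more. In KO, members filled the range without a gap, with 9 at 5 to 9 selecting UMIs, 8 at 10 to 19, 13 at 20 to 29 and 60 at 30 or more. Just inside the limit of 5 lay 2 KO barcodes at 5 and 1 at 6, and just outside it 3 at 4 and 1 at 3. The KO members with fewer selecting UMIs were in part shallow, with a median depth of 3430 UMIs at 5 to 9, 2704 at 10 to 19, 7622 at 20 to 29 and 7320 at 30 or more. As a share of the barcode, the selecting genes made up 6967 CPM or more in every WT member (median 13382). The KO median was 8305 CPM, and 34 of 90 KO members lay under 6000 CPM against 0 of 20 in WT. A limit of 6000 CPM, chosen after these values were seen, is used below to give values with and without the 34 low-share KO barcodes. It is set on the selecting genes and lies under the lowest WT member, so it removes KO barcodes only. By construction it lowers the KO share and raises the KO level of genes that vary with the selecting genes. It likewise lowers by construction the KO level of genes that vary against them. It leaves all 20 WT members and 56 KO members, a share of 0.251% in KO and a ratio of 1.26 (0.754 to 2.09).

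**Figure D1:**
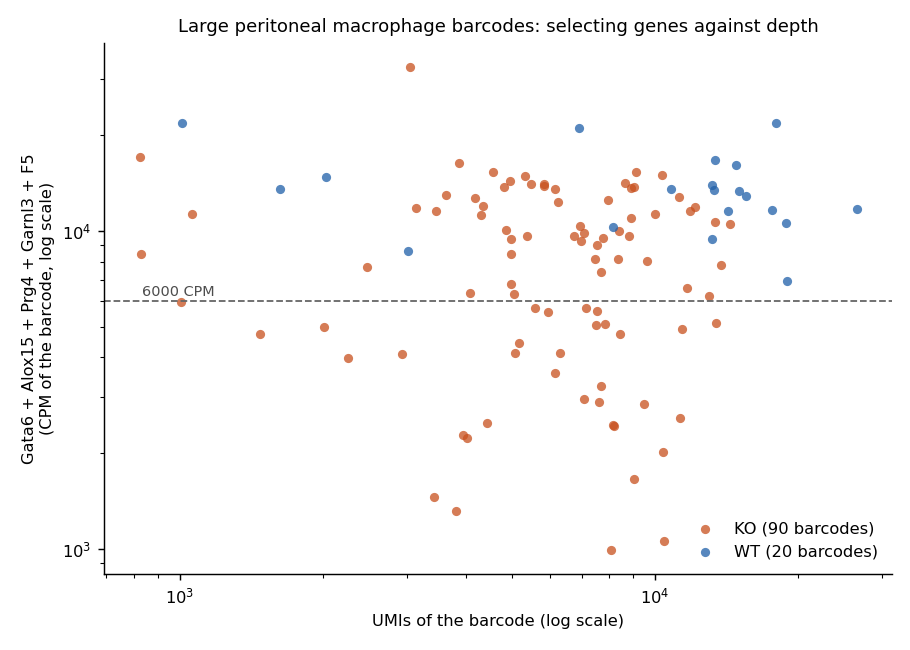
Each point is 1 large peritoneal macrophage barcode, with its UMIs on the x axis and the summed CPM of Gata6, Alox15, Prg4, Garnl3 and F5 on the y axis, both on log scales, for WT (20 barcodes) and KO (90 barcodes). All WT points lie above the dashed line at 6000 CPM, and 34 KO points lie below it at all depths.

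Against the small macrophages of the same libraries (38 WT and 123 KO barcodes), large macrophages were set apart by genes that included those of secreted factors and surface proteins. Slpi, a secreted protease inhibitor, stood at 22933 CPM in WT and 10408 in KO large macrophages and at 4.73 and 28.7 CPM in small ones. Selp, the gene of the adhesion receptor P-selectin, was at 817 and 444 CPM and had no UMI in either set of small macrophages. Ptgis (prostacyclin synthase; 878 and 554 CPM), Cd5l (a scavenger-receptor-type secreted protein; 821 and 405 CPM), Cald1 (caldesmon; 370 and 295 CPM) and Ltbp1, whose product binds latent TGF-beta (471 and 292 CPM), were likewise at 0 in small macrophages of both libraries. Tgfb2 itself stood at 382 and 372 CPM in large macrophages and at 0 and 1.2 CPM in small ones. Itga6 (integrin alpha 6; 731 and 600 CPM), C4b (complement component 4; 1142 and 532 CPM), Vsig4 (a complement receptor; 325 and 282 CPM) and the acute-phase gene Saa3 (2239 and 4150 CPM) were among the 12 highest ratios too, as was Cxcl13, which had no UMI in small macrophages. Reads of C4b cannot be fully told apart from those of its close copy C4a.

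On the other side stood the antigen-presentation genes. H2-Aa, an MHC class II chain, was at 110 CPM in WT and 772 in KO large macrophages against 14014 and 12404 CPM in small ones. Cd74, the invariant chain that guides MHC class II molecules, was at 305 and 3060 CPM against 43110 and 35942 CPM. Tmsb10 and S100a6 (actin- and calcium-binding proteins), Cd52, Ifngr1 (the interferon gamma receptor), Ms4a6c, H2-DMa, H2-Ab1, Pid1, Pld4 and Emb were also lower in large macrophages of both libraries. These genes were picked for their ratio among those at 50 CPM or more in both libraries, so the ratios describe the cell types and are no test of them.

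**Figure D2:**
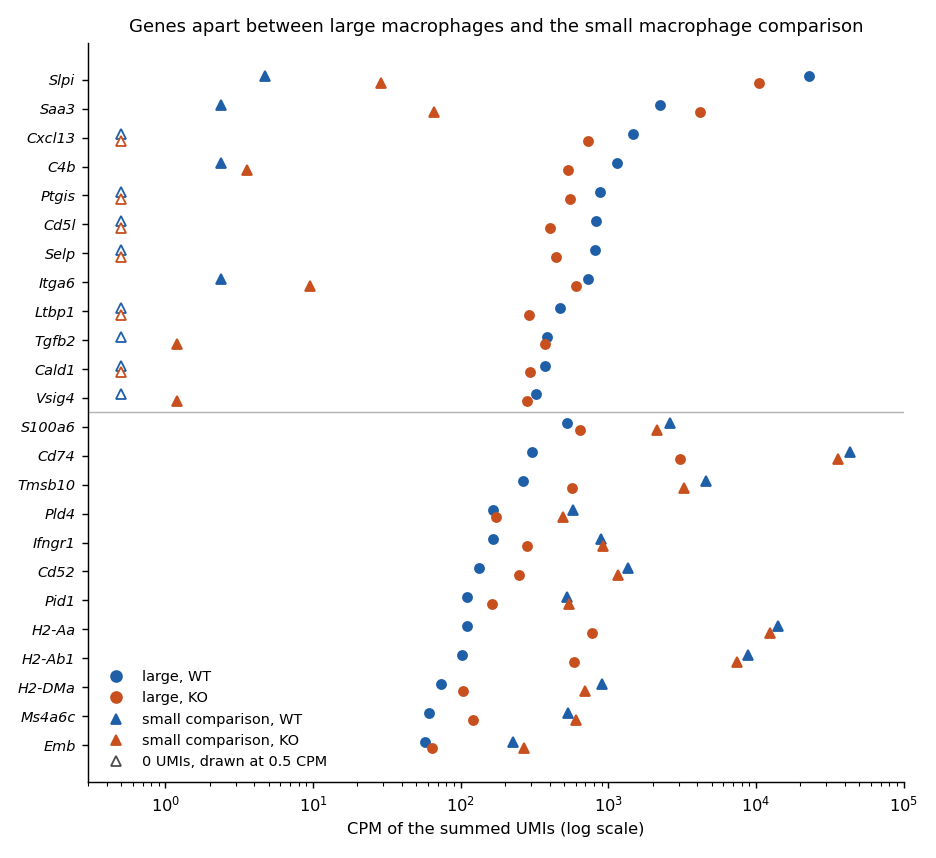
CPM on a log scale for the 12 genes highest and the 12 lowest in large macrophages relative to the small macrophage comparison, with circles for large and triangles for small macrophages, WT in blue and KO in orange, and open symbols for 0 UMIs drawn at 0.5 CPM. Slpi lies at 22933 and 10408 CPM in large and at 4.73 and 28.7 CPM in small macrophages, while H2-Aa lies at 110 and 772 CPM in large and at 14014 and 12404 CPM in small ones.

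Among the 20 most abundant transcripts of the large macrophages, Slpi (0.454), Cxcl2 (0.526) and the selecting gene Prg4 (0.629) were lower in KO by more than the 1.5-fold set as the limit for a call and are described below. The others lay within that limit. Lyz2 led in both, with 63780 CPM in WT and 50958 in KO, and its level per member ran from 19649 over a median of 57291 to 100340 CPM in WT and from 5650 over 44521 to 118958 CPM in KO. Apoe, the apolipoprotein that macrophages secrete for lipid transport, was at 9459 CPM in WT and 12555 in KO, a ratio of 1.33 (1.27 to 1.39). Cebpb, a transcription factor these macrophages need, was at 3998 and 5519 CPM (1.38, 1.29 to 1.48), and the iron-storage gene Fth1 at 3433 and 4575 CPM (1.33, 1.23 to 1.44). Fn1 was at 6436 and 6002 CPM (0.933, 0.879 to 0.990), and the complement gene C1qb at 4795 and 4810 CPM (1.0, 0.937 to 1.07).

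A gene was called different where the KO to WT ratio was at least 1.5 or at most 1/1.5 and its counting interval did not hold 1. Among 3174 genes that reached 50 CPM in WT or KO, 181 (5.7%) were higher in KO and 130 (4.1%) were lower. The WT side rests on 20 cells, and single cells carried some of these calls: 20 of the 130 lower genes had at least 50% of their WT UMIs in 1 member. When each WT member was left out in turn, 48 of the 130 lower and 120 of the 181 higher genes kept their call every time. With KO members limited to those at 6000 CPM or more, 121 of 3107 genes (3.89%) were higher and 117 (3.77%) lower, and 83 of the 181 and 82 of the 130 were among them. The median log2 ratio of all genes was 0.09. With ratios taken relative to that median, 136 genes were higher and 178 lower, so the balance between both directions depends on the scaling.

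Genes of antigen presentation and of other leukocytes had high ratios on the KO side, which were lower once the low-share barcodes were left out. Cd74 was at 305 CPM in WT and 3060 in KO, 10.0 times as high (7.97 to 12.8). H2-Eb1 was at 36.6 and 472 CPM (12.9, 6.70 to 28.5), H2-Aa at 110 and 772 CPM (7.03, 4.77 to 10.8), and H2-Ab1 at 102 and 582 CPM (5.73, 3.81 to 8.97). Per member, H2-Aa had a median of 0 in both libraries, and the highest member stood at 386 CPM in WT and 10860 in KO, so the libraries differed in a tail of KO barcodes. With KO members at 6000 CPM or more of the selecting genes, the ratio was 1.87 (1.43 to 2.46) for Cd74, 1.77 (0.799 to 4.31) for H2-Eb1, 0.826 (0.486 to 1.42) for H2-Aa and 0.918 (0.536 to 1.60) for H2-Ab1. Only the interval of Cd74 lay above 1. The limit lowers by construction the genes that vary against the selecting genes, so these falls are a description and no test. Without any limit on B-cell genes, which adds 9 WT and 28 KO barcodes, the ratios were 1.85 for Cd74 and 1.77 for H2-Aa.

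Other genes followed the same course. Ccr2, the chemokine receptor of monocytes, had 0 UMIs in WT and 36 UMIs in 11 KO members, all 11 of them under 6000 CPM, which is at least 4.84-fold higher in KO when WT is set to a floor of 3 UMIs. The counting interval of the ratio, which uses no floor, began at 3.74. Ccl5, a chemokine abundant in T and natural killer cells, had 0 UMIs in WT and 65 in 7 KO members, of which 1 held 47.7%. Ms4a4b, a lymphocyte membrane gene, had 0 and 36 UMIs, the latter in 5 low-share members. Coro1a, which encodes an actin-binding protein of leukocytes, was at 28.4 and 159 CPM (5.59, 2.61 to 14.3), and 1.46 (0.567 to 4.19) with the limit. Lgals1 (galectin 1) was at 24.4 and 96.7 CPM (3.96, 1.72 to 11.2), and 1.38 (0.490 to 4.43) with it.

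Within the KO library, the 34 barcodes under 6000 CPM and the 56 above it were then set side by side. The 2 sets had similar depth, with medians of 7122 and 6500 UMIs and 2391 and 2158 genes. The selecting genes are lower in the first set by construction, and genes that vary with them are described here with no test. Timd4, the receptor for phosphatidylserine on dying cells, was at 53.5 CPM in the low-share and 541 CPM in the other KO barcodes, against 557 CPM in WT. Ptgis stood at 98.1 and 818 CPM, C4b at 111 and 777 CPM, Saa3 at 1253 and 5832 CPM, the fatty-acid carrier Fabp4 at 263 and 1222 CPM, and Hdc, the histamine-forming enzyme, at 0 and 36 UMIs. General macrophage genes were lower in part: the 12 macrophage markers summed to 50221 CPM in the low-share and 80459 CPM in the other barcodes, with Lyz2 at 33260 and 61238 CPM and Adgre1 at 317 and 844 CPM. Other genes of these cells were at similar levels, since C1qa was at 3424 and 3452 CPM and Apoe at 13384 and 12074 CPM. Csf1r, of which the rule required at least 1 UMI in every member, was at 571 and 575 CPM.

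Several genes of small macrophages were higher in the low-share barcodes than in the other KO members. H2-Aa was at 1944 CPM there, 90.6 CPM in the other KO members and 12404 CPM in KO small macrophages. Ccr2 stood at 161, 0 and 956 CPM in the same order, and Mrc1, the mannose receptor, at 129, 5.18 and 155 CPM. Folr2, a folate receptor of tissue macrophages, was at 93.6, 2.59 and 71.9 CPM. F13a1, the coagulation factor XIII subunit of monocytes and macrophages, was at 446, 101 and 596 CPM. Of the 8 small-macrophage and monocyte markers, Ccr2, Cd226, Ly6c2 and Cx3cr1 were at 0 in the WT members and in the 56 KO members, and all 8 were detected in the 34.

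Markers of lymphocytes moved with the same split. The 10 B-cell markers summed to 370 CPM in the 34 low-share barcodes, 135 CPM in the 56 and 24.4 CPM in WT. These sums are limited in part by the rule, which capped Cd79a, Cd79b and Ms4a1. T-cell markers stood at 201, 2.59 and 4.06 CPM, and natural killer and innate lymphoid markers at 196, 12.9 and 12.2 CPM. T-cell UMIs were found in 4 of the 34 barcodes. Doublet scores from Scrublet were cut at preset rates that differed by library. The cut marked 17.8% of the KO and 7.12% of the WT barcodes that passed the quality limits. Among members it marked 14 of 90 in KO, 11 of them low-share, and 0 of 20 in WT. Removing those 14 left the ratio of H2-Aa at 7.64 and of Cd74 at 10.2, and removing the 5 barcodes with at least 2 T-cell or natural killer UMIs left them at 7.48 and 10.5. The part that mixed droplets and free RNA have in the low-share barcodes beyond these removals was not tested.

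Levels of MHC class II differed between members with and without Timd4, which is itself lower in the low-share barcodes, so this restates the same split. With members thinned to 5000 UMIs, the 26 KO members with a Timd4 UMI had a median of 2 UMIs summed over H2-Aa, H2-Ab1, H2-Eb1 and Cd74 and at most 12. The 34 KO members without one had a median of 10 and at most 271, and 11 of them had 20 or more. All 11 barcodes with 20 or more were among the 24 under 6000 CPM. In WT, 11 members with Timd4 had a median of 0 and at most 8, and 5 without had a median of 3 and at most 10. Members under 5000 UMIs are left out of these counts, 4 in WT and 30 in KO.

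**Figure D3:**
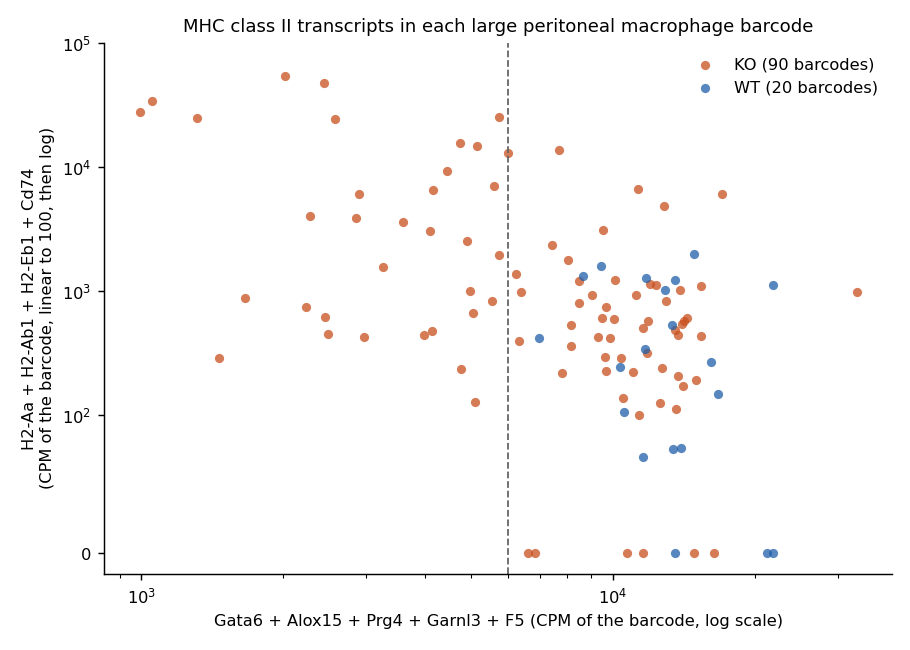
Each point is 1 large peritoneal macrophage barcode, with the summed CPM of the 5 selecting genes on a log x axis and the summed CPM of H2-Aa, H2-Ab1, H2-Eb1 and Cd74 on a y axis that is linear to 100 and logarithmic above. Most of the highest MHC class II values lie among the 34 KO barcodes left of the dashed line at 6000 CPM, where no WT barcode lies, and a few KO barcodes to its right also exceed every WT barcode.

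A second group of genes was higher in KO with and without the low-share barcodes. Chil3, a secreted chitinase-like protein of alternatively activated macrophages, had 1 UMI in WT and 244 UMIs in 24 KO members, a ratio of 98.4 with a wide interval (17.5 to 3901). In the 56 KO members the ratio was 37.6 (6.49 to 1510), and over the alternatives it ran from 37.1 to 126. No single KO member held more than 23.4% of the Chil3 UMIs. Chil3 shares sequence with a close copy, Chil4, which had no UMI in any member, and in small macrophages it was at 35.5 CPM in WT and 235 in KO. Chil1, another member of that family, was at 12.2 and 110 CPM (9.0, 2.95 to 44.8; 11.5, 3.72 to 57.4 with the limit).

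Lpl, the lipase that releases fatty acids from lipoproteins, was at 40.6 CPM in WT and 161 in KO (3.95, 2.06 to 8.50; 4.97, 2.56 to 10.8 with the limit). With each barcode given the same weight its ratio was 1.18, and the highest WT member stood at 995 CPM. Ncoa3, a coactivator of nuclear receptors, was at 40.6 and 156 CPM (3.83, 1.99 to 8.24; 3.44 with the limit) and was seen in 8 of 20 and 55 of 90 members. H1f0, a linker histone of non-dividing cells, was at 52.8 and 182 CPM (3.44, 1.93 to 6.67), and the noncoding host transcript Snhg1 at 16.3 and 88.5 CPM (5.44, 2.01 to 20.7). All of them kept their call whichever WT member was left out.

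Saa3 was at 2239 CPM in WT and 4150 in KO, a ratio of 1.85 (1.69 to 2.04) that was 2.60 (2.37 to 2.86) with the limit. Its spread was wide in both libraries, since 1 WT member held 29.6% of the WT UMIs and 1 KO member 30.1% of the KO UMIs. The eosinophil-attracting chemokine gene Ccl24 was at 272 and 567 CPM (2.08, 1.60 to 2.75; 2.38 with the limit). Ccl6, another chemokine, was at 1723 and 3276 CPM (1.90, 1.71 to 2.12), and 1.24 (1.10 to 1.39) with the limit. The transcription factor Klf2 was at 2430 and 3840 CPM (1.58, 1.44 to 1.73; 1.47 with the limit). With the limit, Ccl6 and Klf2 thus lay under the 1.5-fold needed for a call.

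Among the genes lower in KO, Slpi had the most UMIs. It stood at 22933 CPM in WT and 10408 in KO, a ratio of 0.454 (0.438 to 0.470) that stayed at 0.472 with the limit and between 0.421 and 0.570 when any 1 WT member was left out. A UMI was seen in 16 of 20 and 63 of 90 members, with a median per member of 16159 CPM in WT and 1688 in KO and maxima of 78856 and 88679 CPM. The ranges therefore overlap fully, and the medians lie far apart. Cxcl2, a neutrophil-attracting chemokine, was at 9711 and 5108 CPM (0.526, 0.499 to 0.555), with medians per member of 11284 and 3756 CPM, and 0.631 with the limit. Cxcl1, of the same family, was at 1394 and 573 CPM (0.411, 0.353 to 0.479). It was seen in 7 of 20 and 36 of 90 members.

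Nfkbia, the inhibitor of NF-kB and one of its targets, was at 1865 and 955 CPM (0.512, 0.452 to 0.580; 0.546 with the limit), and Tnfaip3, another such inhibitor, at 236 and 106 CPM (0.452, 0.312 to 0.655). Ptgs2, the inducible cyclooxygenase, had 37 UMIs in WT and 5 in KO (0.0545, 0.0167 to 0.139), but its WT UMIs came from 3 members, 1 of which held 59.5%. Tnfsf9, a costimulatory ligand, had 23 UMIs in 3 WT members and 2 UMIs in 1 KO member. Il1b had 26 and 20 UMIs, and 96.2% of those in WT lay in 1 member, without which its ratio was 7.19.

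A further set of genes with low ratios, from Cd209b to Apoc1, had at most 63 UMIs in WT. Cd209b, a C-type lectin receptor, had 15 UMIs in 7 WT members and 0 in KO, at least 12.4-fold lower when KO is set to a floor of 3 UMIs. The counting interval of the ratio, which uses no floor, ended at 0.112. Lilra6 had 14 UMIs in 8 WT members and 2 in KO (0.0576, 0.00635 to 0.251), and in small macrophages it was also lower in KO, 10.8 against 96.9 CPM. Cd200r4 was at 65.0 and 9.83 CPM (0.151, 0.0485 to 0.407). Dpysl3, a cytoskeleton regulator, was seen in 16 of 20 WT and 17 of 90 KO members, at 154 and 31.1 CPM (0.202, 0.110 to 0.358). Apoc1, an apolipoprotein, was at 256 and 67.2 CPM (0.262, 0.173 to 0.395), with 54.0% of the WT UMIs in 1 of 4 members.

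Irf2bp2, which encodes a transcriptional repressor, was at 378 CPM in WT and 193 in KO (0.512, 0.387 to 0.679; 0.432 with the limit). The ratio between the libraries was below 1 in the other cell sets as well, 0.626 in small macrophages, 0.427 in dendritic-cell barcodes and 0.356 in B-cell barcodes. A test of whether it differed between these sets was not made.

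Retnla, which encodes a secreted protein of alternatively activated and small macrophages, shows how much 1 cell can weigh. It was at 2706 CPM in WT and 667 in KO (0.246, 0.217 to 0.279), but 595 of the 666 WT UMIs lay in 1 member, which stood at 44556 CPM. Without that member the ratio was 2.19. Cxcl13, the B-cell-attracting chemokine that marks large macrophages, was seen in 7 of 20 and 30 of 90 members, at 1463 and 724 CPM (0.495, 0.430 to 0.571). Of its WT UMIs 53.9% lay in 1 member, without which the ratio was 0.995. Timd4 was at 557 and 362 CPM (0.650, 0.523 to 0.811) and was seen in 14 of 20 and 35 of 90 members, but its ratio was 0.972 (0.780 to 1.22) with the limit.

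**Figure D4:**
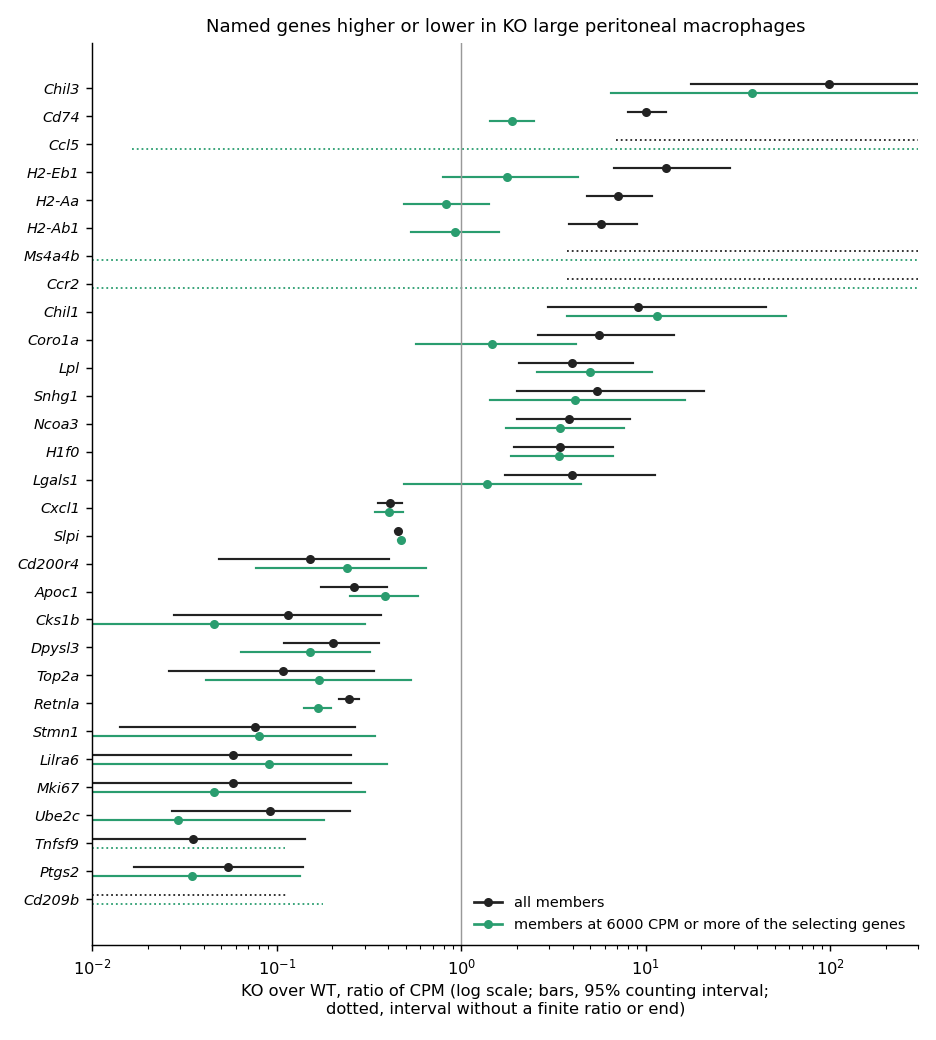
KO over WT ratios of CPM on a log axis with 95% counting intervals for the 15 genes called higher and the 15 called lower whose intervals lay farthest from 1, in all members (black) and with KO members limited to 6000 CPM or more of the selecting genes (green), where dotted lines are intervals without a finite ratio or end. H2-Aa moves from 7.03 to 0.826 and Cd74 from 10.0 to 1.87, whereas Lpl, Chil1 and Slpi keep their place.

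The selecting genes themselves were lower in KO when all members were summed. Prg4 was at 8537 and 5367 CPM (0.629, 0.595 to 0.664), Alox15 at 2787 and 1902 CPM (0.682), F5 at 1316 and 727 CPM (0.553), Garnl3 at 293 and 141 CPM (0.482) and Gata6 at 195 and 133 CPM (0.680, 0.470 to 0.994). With the limit, which is itself set on these genes, the ratios were 0.829 for Prg4, 0.928 for Alox15, 0.746 for F5, 0.744 for Garnl3 and 0.890 for Gata6. Csf1r, the receptor for the growth factor CSF1 on which macrophages depend, was at 516 and 573 CPM (1.11, 0.904 to 1.37).

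Lists of genes by function place these genes among their pathways. For each list, those that reached 10 CPM in WT or KO were counted. At that level 3.85% of all 7790 genes were called higher in KO and 3.06% lower, and with the limit of 6000 CPM 2.2% and 2.85% of 7723. List medians below are log2 ratios of KO to WT minus the median of all genes, and genes of the rule are left out. Of 39 further genes of the large-macrophage programme, 5 were higher and 9 lower, with a median of -0.25 that was -0.05 with the limit, when 1 was higher and 2 lower. The lower ones included Cd5l (0.493), Selp (0.544), Ltbp1 (0.619) and Aspa (0.643), the higher ones Marco (2.53), a scavenger receptor, and Fcna (1.54), a lectin of the complement system. For Marco, 71.4% of only 7 WT UMIs lay in 1 member. Of 17 genes of small macrophages and monocytes, 10 were higher and 1 lower, with a median of 0.74, and 1 and 2 of 13 with the limit (median 0.17). The 15 genes of alternative activation, Chil3 among them, had 5 higher and 1 lower, with a median of -0.02. Of these 15, 7 lay above the median of all genes and 8 below. With the limit, 3 of 13 were higher and 2 lower (median -0.44).

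Among 9 MHC class II genes, 5 were higher and 0 lower, with a median of 2.43 that went to -0.07 with the limit. Of 18 MHC class I genes, 0 were called, at a median of -0.19. The 16 chemokines had 5 higher and 2 lower genes, so this list moved in both directions: Ccl2 (2.07), Ccl24 (2.08), Ccl6 (1.90) and Ccl9 (1.70) stood above 1.5 beside Ccl5, Cxcl1 (0.411) and Cxcl2 (0.526) below. Of 28 inflammatory and NF-kB genes, 0 were higher and 5 lower, namely Nfkbia, Tnfaip3, Ccrl2 (0.462), Il1a (0.430) and Il1b, at a median of -0.39 (-0.17 with the limit, again with 5 lower). Il1a and Il1b had 60.0% and 96.2% of their WT UMIs in 1 member. With members thinned to 5000 UMIs the median of this list was close to 0.

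Of 12 coagulation and fibrinolysis genes, 1 was higher (F13a1, 1.87, and 0.829 with the limit) and 2 were lower, F3 (tissue factor, 8 and 4 UMIs, 0.202) and F7, coagulation factor VII (154 and 95 CPM, 0.615, 0.402 to 0.952). Their median was -0.46, and 10 of 12 lay below the median of all genes. The 16 complement genes had 1 lower member, C4b (0.466, 0.396 to 0.549), and a median of -0.22. With the limit, 0 of 15 were called, at a median of -0.12. Of 18 genes of eicosanoid synthesis, Ptgs2 and Ptgis (0.631, 0.530 to 0.752) were lower and 0 higher. The ratio of Ptgis was 0.932 with the limit.

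Among 25 genes of lipid handling, 3 were higher, Lpl, Lpcat2 (2.82, 1.34 to 6.86), which remodels phospholipids, and Cpt1a (2.10, 1.05 to 4.63), which brings fatty acids into mitochondria and kept its call in 13 of 20 fits that left out 1 WT member, and 0 were lower. The lipid droplet protein Plin2 (679 and 898 CPM, 1.32) and the carrier Fabp4 (841 and 870 CPM, 1.03) were not called. The list median was 0.06. Of 29 lysosome and autophagy genes, 1 was higher and 1 lower, near the share over all genes, while 21 of 29 lay above the median of all genes.

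The cell-cycle list had the lowest median, -2.40, with 13 of 21 genes lower in KO, and it rested on 1 WT member. That barcode had 26546 UMIs, 295 of them from cell-cycle genes, against 50 in the next. All 14 UMIs of Mki67, all 15 of Top2a and all 22 of Ube2c in WT were its own. Without it, 7 cell-cycle genes reached 10 CPM, 0 of them were called and their median was 0.13. Over 12 genes of cell division it had 106 UMIs, and the highest KO member had 3. Cks1b, a cell-cycle gene that was not among those 7, stood at 56.9 CPM in WT and 6.55 in KO (0.115, 0.0276 to 0.367). Its call held whichever WT member was left out.

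Several other lists had few or no called genes. Ribosomal protein genes had 0 of 43 called at a median of -0.12, and 34 of 43 lay below the median of all genes. Nuclear oxidative phosphorylation genes had 1 higher and 1 lower of 47 at -0.12, and 30 of 47 lay below that median. Mitochondrially encoded genes had 0 higher and 1 lower of 13 at -0.03. Genes of the unfolded protein response had 0 of 20 called, and the interferon response 1 higher and 0 lower of 24. Among 20 glycolysis genes 1 was lower, Gapdh, at 1682 and 1080 CPM (0.642, 0.567 to 0.727), and its ratio was below 1 in small macrophages (0.724), dendritic-cell (0.777) and B-cell barcodes (0.711) too.

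**Figure D5:**
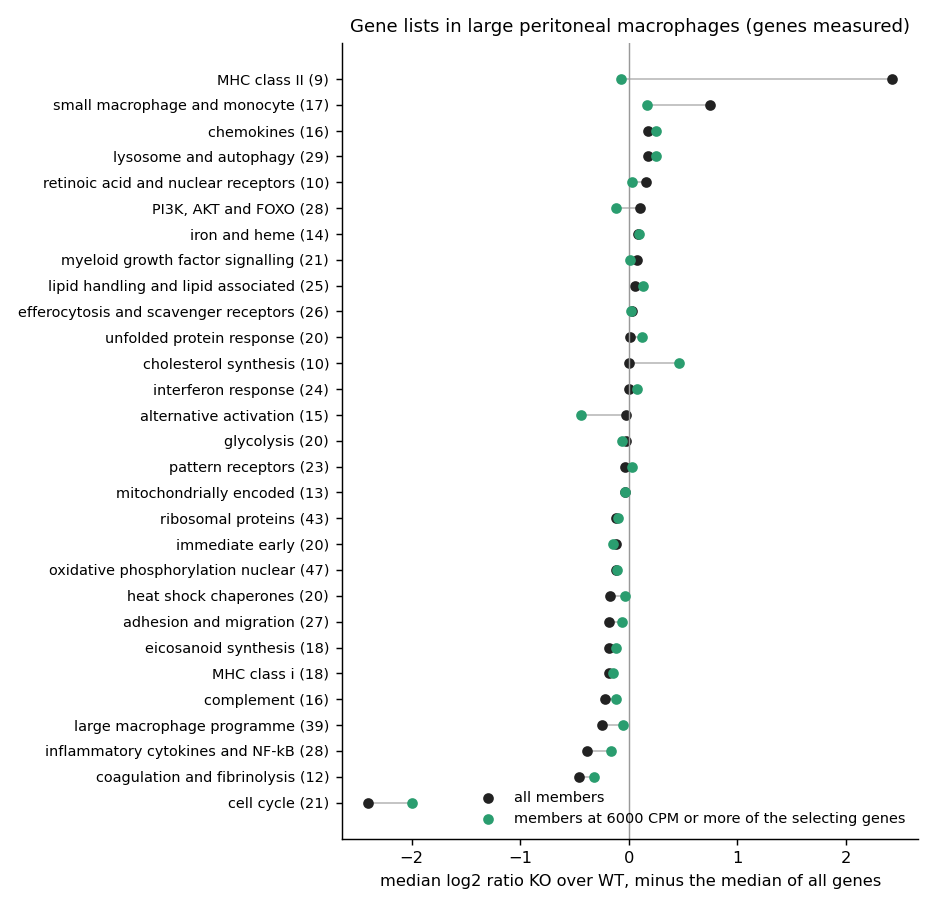
Median log2 ratio KO over WT of each functional gene list minus the median of all genes, for all members (black) and with KO members limited to 6000 CPM or more of the selecting genes (green), with the number of genes measured in parentheses. MHC class II moves from 2.43 to -0.07, while the cell-cycle list stays low at -2.40 and -2.0, a value that rests on 1 WT member.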

How the data were processed

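The deposited expression files hold raw UMI counts per gene and barcode for 32285 genes, written by Cell Ranger 6.1.2 per the file headers, but Cell Ranger 6.0.1 with genome build mm39, and Seurat 4.3.0 downstream, per the submitters' processing notes. No coordinates are given because of this conflict. The deposited receptor files hold contigs per barcode, of which the counts were used to mark barcodes with a productive heavy chain. Which gene the KO mice lack is not reported here.

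The members and gene lists were chosen with earlier results of these data known. Counts of member barcodes were summed per library (numpy 2.4.6, scipy 1.17.1, pandas 2.3.3). Ratios carry exact conditional binomial 95% intervals, shares exact Clopper-Pearson intervals, and a ratio of shares a log-normal one, all for counting error only. With 1 library per genotype no p-value was computed. Libraries at 0 UMIs were set to a floor of 3 UMIs in list medians. Ratio calls were tested on simulated counts that varied by counting error only. That simulation held no variation between cells, so it cannot show how the calls fare where 1 cell holds much of a gene. Genes were named by rule: the genes of the selecting rule and the 5 label markers, the 15 higher and 15 lower with the interval bound farthest from 1, up to 4 per list, the 20 most abundant, and 12 each way against small macrophages. Other genes were named after their values were seen. Small macrophages had at least 2 Csf1r UMIs and at least 3 UMIs summed over Adgre1, Fcgr1, Cd14, C1qa, C1qb and C1qc. They also had no Cd209a or Flt3 and at most 1 selecting UMI. Dendritic-cell barcodes had at least 3 UMIs of Cd209a and Flt3, and B-cell barcodes over 10 B-cell UMIs and no Csf1r. Doublets were not removed in the main analysis. Scrublet (scanpy 1.11.5) marked 0 WT barcodes by its automatic threshold and so had not worked there, and an alternative removed the highest scores at 0.8% per 1000 barcodes instead, 713 barcodes in WT and 3976 in KO. Alternatives varied the rule, depth, weighting, scaling and low-value filter. The limit of 6000 CPM and leaving out each WT member were chosen after seeing the data.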

Additional observations from a re-analysis of the deposited data

How the results depend on the processing

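No paired analysis was possible because each genotype has 1 expression library. The share ratio of 2.02 was 1.82 to 2.11 under the other planned rules and 3.53 with thinning to 5000 UMIs, which left out 3817 WT and 15309 KO barcodes as too shallow. It was 1.26 (0.754 to 2.09) with the limit of 6000 CPM, which removes KO members only. The count of genes higher in KO (181) was 375 without the member with most UMIs of each gene and 300 with genes from 10 CPM, and the count lower (130) was 42 and 238. Removing 1 of 20 WT members takes more from a gene than removing 1 of 90 KO members, so the first alternative shifts ratios upward by its construction. Leaving out each WT member in turn gave 172 to 229 higher and 127 to 150 lower genes.

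The MHC class II median was -0.073 with the limit of 6000 CPM, where the ratios were 0.829 for F13a1, 0.826 for H2-Aa, 0.918 for H2-Ab1, 0.956 for Id3, 0.979 for Ifngr1, 0.935 for Ms4a6c and 0.843 for Tmsb10, all above 1 in the main analysis. F13a1 was at 0.963 without the B-cell limit. Hfe was at 1.51 with members thinned to 5000 UMIs. Without the member with most UMIs of each gene, Fosb was at 1.65, Il1b at 5.64 and Retnla at 1.81. The cause of these changes was not tested. Depth limits WT values most: 3 UMIs in its members equal 12.2 CPM.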
